A study of Mus musculus with 15 samples.

Results

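Cytosolic ribosomal proteins are the protein parts of the ribosome that works in the cytoplasm. The genes were taken by symbol: Rpl or Rps followed by a number, plus Rplp0, Rplp1, Rplp2 and Rpsa, without the Rps6k kinases and without pseudogenes whose names end in -ps. This gave 91 of the 27179 genes in the count table. Of these, 46 encode proteins of the large subunit, 31 encode proteins of the small subunit, 13 are paralogs or retrogenes of such genes, and Rps19bp1 encodes a protein that binds Rps19. A filter on low counts kept 88 of the 91. Rpl3l, Rpl10l and Rps23rg1 did not pass it: Rpl10l had no count in any library, and Rpl3l and Rps23rg1 stayed at or below 1.63 CPM (counts per 1000000, on library sizes scaled between samples).

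Messenger RNA was sequenced from mouse CD4 T cells of 3 conditions, Tfh, Th17 and Th1, with 5 libraries each. Every library came from the genotype B6.Cg-Ifngtm3.1Lky-Il17atm1.1Lky, which alters Ifng and Il17a in all groups alike. Naive cells were stimulated for 3.5 days on plates coated with antibodies to CD3 and CD28 and were then sorted; the design text gives CXCR5+ IL-17A– for Tfh cells and IFNg+ for Th1 cells. For the culture cytokines, the mice's age and the sorting of Th17 cells, nothing is given in the sources used here. Whether libraries of a condition stand for different mice or cultures is not labelled. The p-values therefore reflect only how far these samples scatter, and that scatter may be technical.

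A ribosome holds a single copy of most of these proteins, and the stalk proteins Rplp1 and Rplp2 are the known exception. Their mRNAs are among the most abundant in dividing cells and usually begin with a cytosine followed by a run of pyrimidines, the terminal oligopyrimidine or TOP motif. Through this motif the kinase mTOR and the RNA-binding protein Larp1 set how well the mRNAs are translated and how long they last, and the transcription factor Myc is known to raise their transcription. Activated T cells build many ribosomes before they divide.

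The promoters were searched for runs of pyrimidines near the annotated start. The search did not ask that a run begin at the start with a cytosine, so it is no test of the TOP motif itself. RefSeq promoter sequences of GRCm38.p6 were found by symbol for 69 of the 91 genes, 57 of them among the 77 subunit genes. A run of at least 8 C or T bases on the coding strand within 50 bases of the annotated start was present in 48 of the 57, 84.2%, against 36.9% of the 9626 tested genes with a promoter. The letters CTTTC stood in the same window in 54.4% of the subunit genes and in 12.5% of the tested genes. Within all 300 bases and on both strands, CCGGAAG, the core letters bound by Ets factors, was found in 42.1% of the subunit genes and 21.1% of the tested genes. CACGTG, the E-box bound by Myc, was found in 10.5% of the subunit genes and 11.9% of the tested genes. A match of letters is a description and not a mapped binding site.

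The stretches below run from 50 bases before the annotated start to 30 bases after it, with the longest run of C and T in capitals. They are the 3 marker genes Rplp0, Rpl41 and Rps26, then Rps12, Rps2, Rpl35 and Rpl4, which were lower in Tfh than in Th1 cells, and Rpl7l1, which was higher.
Rplp0: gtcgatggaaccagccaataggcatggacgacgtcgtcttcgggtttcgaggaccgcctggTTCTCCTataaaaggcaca
Rpl41: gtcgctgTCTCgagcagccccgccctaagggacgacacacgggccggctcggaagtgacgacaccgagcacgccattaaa
Rps26: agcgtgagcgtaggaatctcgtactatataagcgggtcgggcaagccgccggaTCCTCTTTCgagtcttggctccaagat
Rps12: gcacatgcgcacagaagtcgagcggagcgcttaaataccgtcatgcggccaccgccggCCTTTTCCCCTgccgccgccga
Rps2: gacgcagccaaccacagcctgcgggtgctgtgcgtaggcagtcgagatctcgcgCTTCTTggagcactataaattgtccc
Rpl35: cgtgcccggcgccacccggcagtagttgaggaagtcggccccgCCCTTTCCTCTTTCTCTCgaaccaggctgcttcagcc
Rpl4: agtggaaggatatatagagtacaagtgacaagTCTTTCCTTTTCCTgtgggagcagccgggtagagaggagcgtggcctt
Rpl7l1: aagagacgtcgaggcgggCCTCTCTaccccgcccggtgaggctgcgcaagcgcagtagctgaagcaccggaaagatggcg
The longest runs spanned 18 bases in Rpl35, 14 in Rpl4, 11 in Rps12 and 9 in Rps26, and 7 bases in Rplp0, 6 in Rps2 and 4 in Rpl41. Rpl7l1 had a run of 7 that began 32 bases before the start, whereas that of Rps26 began 3 bases after it. On GRCm38 the 3 marker windows lie at chr5:115559417-115559496 on the plus strand (Rplp0), chr10:128549139-128549218 on the minus strand (Rpl41) and chr10:128626477-128626556 on the minus strand (Rps26). Members lie on 19 chromosomes, with at most 14 on any chromosome.

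Coding sequences are the other feature the symbols did not use. Mouse cells carry many processed pseudogenes of ribosomal protein genes, and a read that fits several places can be dropped or shared out by the counting step. The setting used for such reads is not given in the sources used here. Each coding sequence was therefore cut into all its words of 50 bases, and the words found in no transcript of any other gene of GENCODE vM21 were counted. Of the 77 subunit genes, 30 had no such word. Rpl41, Rpl13 and Rpl4 show the contrast, by the whole coding stretch of Rpl41 (75 bases without its stop) and the first 60 bases of Rpl13 and Rpl4, with the start codon in capitals.
Rpl41: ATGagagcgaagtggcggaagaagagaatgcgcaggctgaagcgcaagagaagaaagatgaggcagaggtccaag
Rpl13: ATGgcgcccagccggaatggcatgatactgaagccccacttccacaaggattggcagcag
Rpl4: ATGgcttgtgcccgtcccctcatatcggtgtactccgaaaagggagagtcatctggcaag
In Rpl4, 79.7% of the words were its own, and its mean level over the 15 libraries was 2310.1 CPM. Rpl13 had no word of its own, shared words with 15 other genes, and was listed at 1.86 CPM. Rpl41 also had none, shared words with 4 other genes, and was at 3599 CPM. Its coding sequence is 75 bases of a transcript of 437, and sequence outside the coding part was not searched for any gene.

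The level tended to follow the share of unique words. The 32 genes with no unique word had a median of 8.56 CPM, the 31 genes with under 20% unique words 209 CPM, and the 24 genes with at least 20% had 678 CPM. Across the 77 subunit genes, Spearman's rho between unique share and level was 0.76, a description across genes that share the same libraries. A total of 17 subunit genes were under 10 CPM, and 16 of them had no unique word. The exception was Rpl39, a small protein at the peptide exit tunnel, with 13.5% unique words and 1.19 CPM. Among the members under 10 CPM the highest were Rpl10a at 9.30 CPM, Rpl9 at 7.82 CPM, Rpl28 at 7.53 CPM, Rpl31 at 7.41 CPM and Rpl23a at 6.46 CPM. Rpl5 and Rpl11, which bind the ribosomal 5S RNA and hold back Mdm2 when ribosome assembly is disturbed, were listed at 2.66 and 3.89 CPM. The 24 members under 10 CPM held 0.218% of all counts on members. How far reads left out of the counting lowered these levels was not tested.

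**Figure D1:**
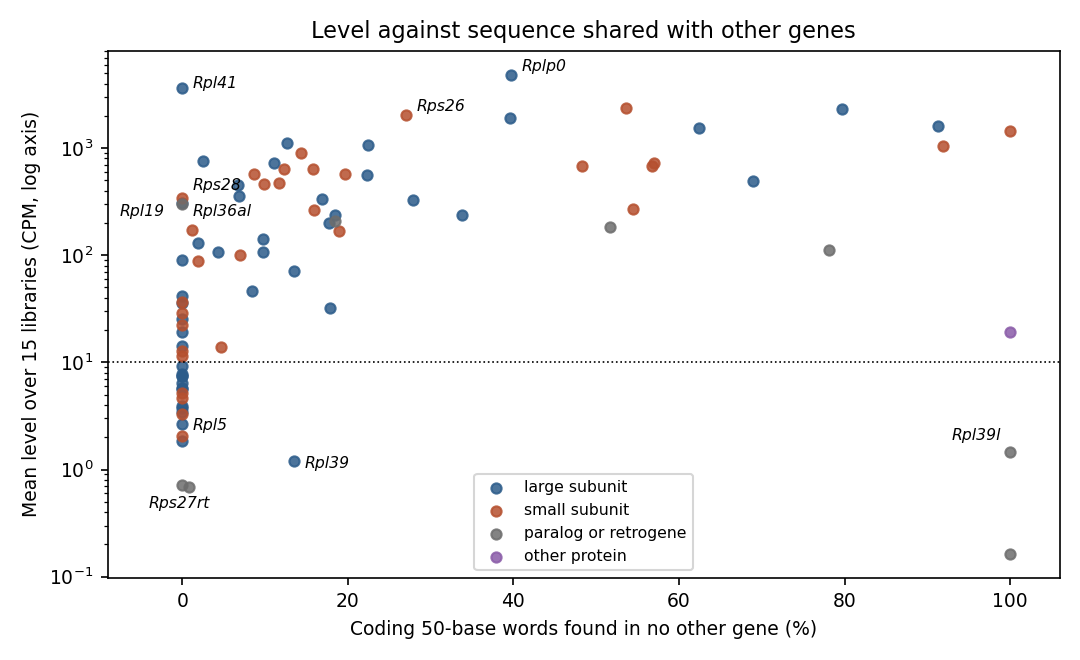
Mean level over all 15 libraries (CPM, log axis) against the share of coding words of 50 bases found in no other gene, for the 86 members with a coding sequence and a count. The dotted line marks 10 CPM. Points at 0% run from 0.7104 CPM (Rps27rt) to 3599 CPM (Rpl41), and the genes below the line lie at 0% except Rpl39, Rps23rg1, Rpl39l and Rpl3l.

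Paralogs and named retrogenes took reads at levels unlike those of their parent genes, some below and some above. Below its parent was Rpl32l, at 101 CPM against 1526 CPM for Rpl32. So were Rpl6l, at 4.03 CPM against 359 CPM for Rpl6, and Rpl22l1, at 209 CPM against 498 CPM for Rpl22. Rpl7l1 was at 111 CPM and Rpl7 at 1062 CPM. Other copies lay above. Rpl36al was at 304 CPM and Rpl36a at 3.77 CPM. Rps27l, a p53 target, was at 183 CPM and Rps27 at 4.65 CPM, and Rpl37rt was at 915 CPM and Rpl37 at 199 CPM. The gene Rpl36-ps12, left out of the members as a pseudogene, was at 1237 CPM and Rpl36 at 131 CPM. The pairs in which the copy was higher are close in sequence, so their levels are uncertain as values of either gene.

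Per length of transcript, members with high levels were Rpl41 at 8235 CPM per kb, Rplp1 at 3865, Rplp0 at 3564 and Rps26 at 2972 CPM per kb. The lowest that passed the filter were Rpl5 at 1.30 CPM per kb, Rps27rt at 1.90, Rpl39 at 1.95, Rpl13 at 2.39 and Rps4l at 2.40 CPM per kb. Among the 18 subunit genes with at least 20% unique words, the level per length spanned 7.07-fold, between 547 CPM per kb for Rps3, a protein of the mRNA entry channel, and 3865 CPM per kb for Rplp1. The 5 most counted genes carried 37.9% of all member counts, and the first of them 12.2%.

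The labels were checked before the conditions were compared. Library totals, in units of 1000000 counts, ran from 4.87 to 12.2 in Tfh, 8.82 to 11.6 in Th17 and 7.34 to 25.2 in Th1. Cxcr5 averaged 169 ± 14.2 CPM in Tfh, 39.0 ± 4.75 CPM in Th17 and 10.3 ± 2.13 CPM in Th1 libraries (SD, n = 5 each). Il17a averaged 15.1 ± 6.18 CPM in Tfh, 225 ± 24.4 CPM in Th17 and 0.0595 ± 0.0829 CPM in Th1 libraries. Ifng averaged 0.341 ± 0.295 CPM in Tfh, 0.51 ± 0.322 CPM in Th17 and 839.9 ± 136 CPM in Th1 libraries. The summed level of the 4 T cell markers Cd3e, Cd3g, Cd4 and Trac was 3317 to 5219 CPM in Tfh, 3082 to 3808 in Th17 and 1879 to 2912 in Th1 libraries. The 3 B cell markers summed to at most 2.59 CPM, the 3 myeloid markers to at most 3.09 CPM, the 2 NK markers to at most 0.741 CPM and the 3 erythroid markers to at most 0.980 CPM in any library. Cd8a and Cd8b1 summed to 5.22 to 11.3 CPM in Tfh, 6.19 to 16.02 in Th17 and 7.29 to 26.1 in Th1 libraries. Cd8a was at 0 in all 5 Tfh libraries. The part of these markers in the results was not tested.

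Ribosomal protein genes took the smallest mean share of counts in Tfh and the largest in Th1 libraries. The 91 genes held 3.23%, 3.07%, 3.65%, 3.52% and 3.23% of all counts in the 5 Tfh libraries and 3.45%, 3.37%, 3.79%, 3.76% and 3.89% in the 5 Th17 libraries. They held 4.18%, 5.51%, 5.58%, 5.35% and 4.96% in the 5 Th1 libraries. All Th1 libraries were above all others, while the Tfh and Th17 libraries overlapped. The mean shares were 3.34 ± 0.235% in Tfh, 3.65 ± 0.229% in Th17 and 5.12 ± 0.574% in Th1 libraries (SD, n = 5 each). Large subunit genes held 1.92 ± 0.175% in Tfh, 2.12 ± 0.244% in Th17 and 3.10 ± 0.521% in Th1 libraries. Here the groups overlapped: the lowest Th1 library, at 2.27%, lay below the highest Th17 library, at 2.34%. Small subunit genes held 1.27 ± 0.0729% in Tfh, 1.36 ± 0.0465% in Th17 and 1.78 ± 0.114% in Th1 libraries. These are shares of the counted RNA: fewer cells of a type and less RNA per cell cannot be told apart in bulk samples, and the RNA content per cell was not measured here.

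**Figure D2:**
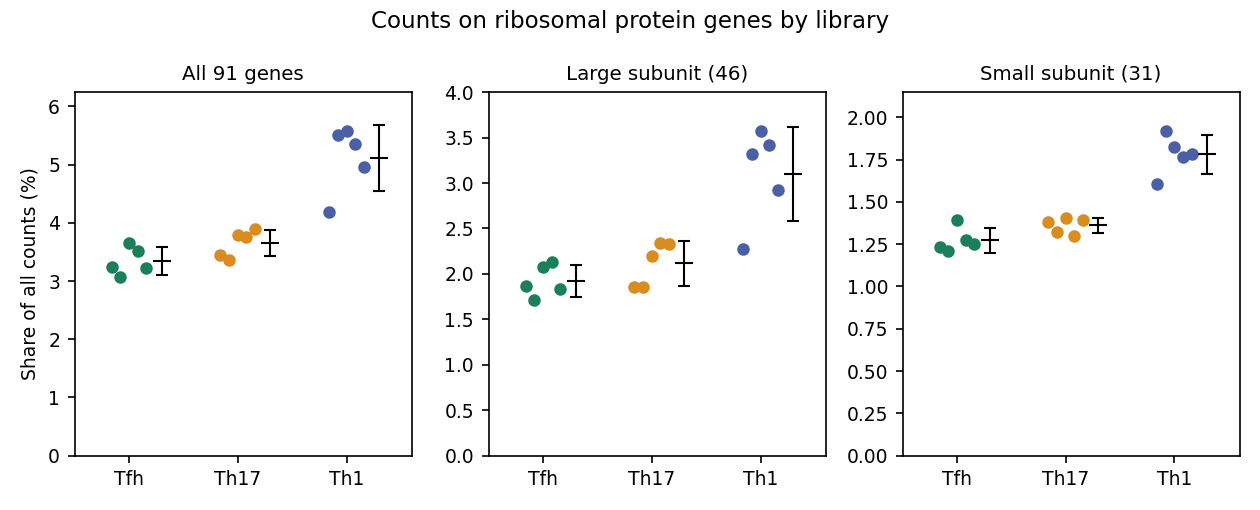
Share of all counts (%) on all 91 ribosomal protein genes and on those of the large and the small subunit. Points are libraries, bars the mean ± SD of 5. For all 91 genes the Th1 libraries start at 4.18%, above the highest Tfh library at 3.65% and the highest Th17 library at 3.89%.

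Tfh and Th1 cells differed at most members. Tested with edgeR's quasi-likelihood test over all 12591 genes that passed the filter, 55 of the 88 members were lower in Tfh than in Th1 cells at a Benjamini-Hochberg adjusted p under 0.05, and 1 was higher. Among all genes tested, 25.2% were called lower and 24.1% higher. The median fitted log2 fold change of the 88 genes was -0.66, and that of all genes was -0.01. The lower genes were 31 of 46 in the large subunit, 18 of 31 in the small subunit and 6 of the 10 tested paralogs and retrogenes. All 5 Tfh libraries lay below all 5 Th1 libraries at 27 members, and 18.2% of all genes tested did so.

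Between Th17 and Th1 cells, 36 of the 88 members were lower in Th17 and 1 was higher. Of all genes, 17.8% were called lower and 19.0% higher in this comparison. The median log2 fold change was -0.53 for the members and 0.03 for all genes. In the large subunit 23 of 46 genes were lower, in the small subunit 11 of 31, and among paralogs and retrogenes 2 of 10. All 5 Th17 libraries lay below all 5 Th1 libraries at 20 members, and 14.3% of all genes tested did so. The comparisons of Tfh and of Th17 with Th1 share the Th1 libraries and are not independent of each other.

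Tfh and Th17 cells differed at few members. Only Rps27a, Rps12 and Rps19bp1 were called lower in Tfh, 3 of the 88, whereas 9.98% of all genes were lower. No member was called higher by edgeR, against 6.80% of all genes, and none was higher at an unadjusted p under 0.05, by DESeq2 or by limma-voom. At an unadjusted p under 0.05, 15 of the 88 members were lower in Tfh, while 3677 of all 12591 genes passed in either direction. The median log2 fold change was -0.17 for the members and -0.01 for all genes. A lower fitted level in Tfh than in Th17 was found at 72 of the 88 members, against 6387 of all 12591 genes. All Tfh libraries lay below all Th17 libraries at Rps12, Rpl41, Rps27a and Rpl30, while 8.72% of all genes did so. Without the second Th17 library or without the first Th1 library, 5 members were called lower in Tfh, and 2 were in 8 other fits without a library. With a correction for GC content, chosen after the data were seen, 6 were called lower and the median was -0.07. The median of all genes was then 0.09, so that the members lay 0.17 below it, against 0.16 without the correction.

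**Figure D3:**
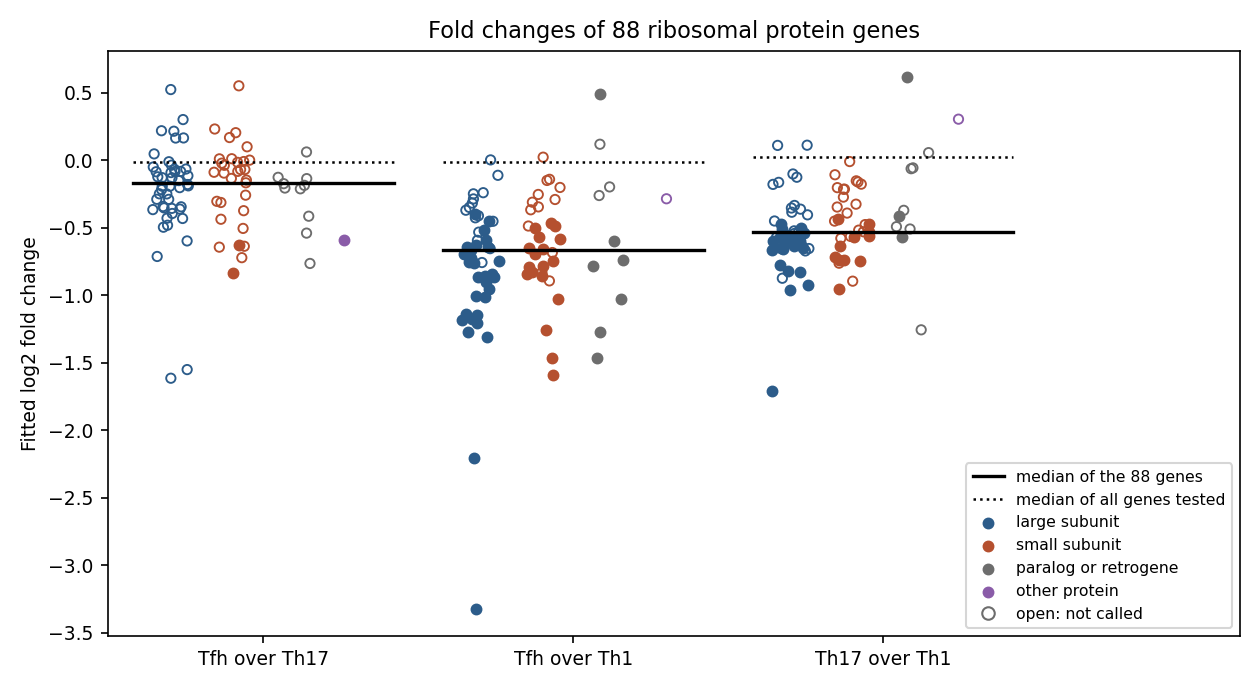
Fitted log2 fold changes of the 88 tested members in the 3 comparisons, by class. Filled points passed the test, open points did not. Solid lines mark the median of the 88 genes (-0.17, -0.66 and -0.53 from left to right) and dotted lines that of all 12591 genes.

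The stalk of the large subunit, which recruits the translation factors, was represented by Rplp0, Rplp1 and Rplp2. Rplp0, the base of the stalk, was at 3691, 3425, 4154, 4931 and 3927 CPM in Tfh libraries and at 3302, 3569, 4189, 5384 and 4639.8 CPM in Th17 libraries. In Th1 libraries it was at 4042, 6523, 8074, 7564 and 5176 CPM. The lowest Th1 library lay inside the range of the other groups. The log2 fold change was -0.64 ± 0.18 (SE) for Tfh over Th1, with an adjusted p of 0.00649 by edgeR, and -0.57 ± 0.18 for Th17 over Th1, with an adjusted p of 0.0174. Rplp1 fell by 0.64 ± 0.23 in Tfh relative to Th1 cells (adjusted p = 0.0303, edgeR), and its value for Th17 over Th1 was -0.45 (adjusted p = 0.147, edgeR). The call of Rplp1 was lost without Tfh library 2 or 5 or Th1 library 3 or 4, where its log2 value was between -0.61 and -0.51. This call was also lost with limma-voom (adjusted p = 0.0571) and on library sizes without scaling factors (adjusted p = 0.0518, edgeR). That of Rplp0 for Th17 was lost without the first Th17 library, at -0.50. Rplp2 was not called in any comparison, with -0.43 for Tfh over Th1 at an adjusted p of 0.0538 by edgeR, just outside the threshold. It passed in 3 of the 15 fits without a library, with DESeq2 (adjusted p = 0.0262) and with a replicate block (0.0106, edgeR). A stricter filter also let it pass (adjusted p = 0.0388, edgeR), whereas limma-voom did not. Rpl5 and Rpl11 were also not called, at the low levels given above.

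Rpl41, the smallest ribosomal protein, was at 1956, 2127, 2765, 2683 and 2158 CPM in Tfh, 3091, 2771, 3478, 3546 and 3587 CPM in Th17 and 3143, 5533, 7008, 5346 and 4787 CPM in Th1 libraries. Its Tfh libraries lay below all others. Its log2 fold change was -1.14 ± 0.17 for Tfh over Th1 (adjusted p = 2.02e-05, edgeR) and -0.65 ± 0.17 for Th17 over Th1 (adjusted p = 0.00542). For Tfh over Th17 it was -0.50 ± 0.17 with an adjusted p of 0.0525 by edgeR, just outside the threshold. It passed in 4 of the 15 fits without a library, and also with DESeq2 (adjusted p = 0.0396), limma-voom (0.0476), a fit of only these conditions (0.0166) and the GC correction (0.0109).

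Rps26, which lines the exit of the mRNA channel, was at 1194, 1485, 1856, 1556 and 1640.1 CPM in Tfh libraries. It was at 2095, 1878, 1813, 1740.2 and 1716 CPM in Th17 and at 2531, 2778, 3115, 2326 and 2631 CPM in Th1 libraries. Every Th1 library exceeded every library of the other groups. The log2 fold change was -0.79 ± 0.12 for Tfh over Th1 (adjusted p = 3.08e-05, edgeR), -0.53 ± 0.12 for Th17 over Th1 (adjusted p = 0.00203) and -0.26 ± 0.12 for Tfh over Th17 (adjusted p = 0.171).

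Rpl4, a large subunit protein of the exit tunnel with 79.7% unique words, varied little within conditions. It was at 1693, 1756, 1951, 1789 and 1846 CPM in Tfh, 1825, 1917, 1956, 1872 and 1875 CPM in Th17 and 2966, 3485, 3252, 3291 and 3178 CPM in Th1 libraries. The Th1 libraries stood apart from the others, and Tfh and Th17 libraries overlapped. The fitted log2 fold change was -0.84 ± 0.09 for Tfh over Th1 (adjusted p = 4.55e-07, edgeR) and -0.78 ± 0.09 for Th17 over Th1 (adjusted p = 1.97e-06).

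The largest called differences between Tfh and Th1 cells were at Rpl39, Rpl13, Rps2, Rpl6l and Rps7. Rps2, a protein near the entry of the mRNA channel, was at 141, 114, 137, 191 and 127 CPM in Tfh libraries and at 176, 205, 194, 276 and 253 CPM in Th17 libraries. In Th1 libraries it was at 218, 359, 569, 608 and 388 CPM. Tfh libraries lay below Th1 libraries without overlap, and the lowest Th1 library lay among those of Th17. The log2 fold change was -1.59 ± 0.23 for Tfh over Th1 (adjusted p = 1.32e-05, edgeR), a 3.01-fold lower level. It was -0.96 ± 0.23 for Th17 over Th1 (adjusted p = 0.00252). Rps2 shared coding words with 71 other genes.

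Rpl39 had 0, 0, 6, 1 and 5 reads in Tfh, 13, 9, 8, 2 and 7 in Th17 and 14, 22, 69, 29 and 37 in Th1 libraries. The Tfh levels ended at 0.494 CPM and the Th1 levels began at 1.96 CPM. Its log2 fold change was -3.32 ± 0.72 for Tfh over Th1 (adjusted p = 0.000821, edgeR) and -1.71 ± 0.63 for Th17 over Th1 (adjusted p = 0.0415). Rpl13 had between 2 and 9 reads in Tfh and between 12 and 81 in Th1 libraries, with a log2 fold change of -2.20 ± 0.64 (adjusted p = 0.00793, edgeR). With so few reads the sizes of both changes are poorly fixed. Rps7, a small subunit protein that binds Mdm2, averaged 7.81 ± 1.48 CPM in Tfh, 12.9 ± 4.06 CPM in Th17 and 21.5 ± 8.48 CPM in Th1 libraries (SD, n = 5 each). Rps7 fell by 1.47 ± 0.29 on the log2 scale in Tfh relative to Th1 cells (adjusted p = 0.000344, edgeR). Rpl6l, a named copy of Rpl6, fell by 1.47 ± 0.50 (adjusted p = 0.0214), a call lost without the third Th1 library, at -1.17. For Th17 over Th1, the calls of Rpl39 and Rps7 were lost in 8 and in 7 of the 15 fits without a library, with log2 values over all 15 fits between -2.07 and -1.4995 for Rpl39 and between -0.94 and -0.56 for Rps7. Rpl35 fell by 1.31 ± 0.35 in Tfh relative to Th1 (adjusted p = 0.00468).

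Among the smallest called decreases in Tfh relative to Th1 cells were 0.40 ± 0.12 at Rpl18 (adjusted p = 0.0122, edgeR) and 0.46 ± 0.10 at Rps3 (adjusted p = 0.00114). In Th17 relative to Th1 cells, Rps9 fell by 0.43 ± 0.13 and Rpl21 by 0.47 ± 0.18. With the GC correction, Rpl18 was no longer called for Tfh, at -0.18, nor were Rps9 and Rpl21 for Th17, at -0.32 and -0.36. Rpl21 lost its call in 8 of the 15 fits without a library. Among the low genes named above, Rpl10a fell by 0.86 ± 0.29 (adjusted p = 0.0209, edgeR) and Rpl23a by 1.14 ± 0.34 (adjusted p = 0.00918) in Tfh relative to Th1. Rpl10a lost its call without the fifth Tfh or the third Th1 library. Rpl9, Rpl28, Rpl31 and Rps27rt were not called. Of 9 genes mutated in Diamond-Blackfan anaemia, a failure of red cell production, 5 were lower in Tfh and 4 were lower in Th17 than in Th1, with median log2 fold changes of -0.65 and -0.53. Of all genes, 25.2% and 17.8% were called lower in these comparisons. All 9 are members, and the shares called lower were 55.6% and 44.4% of the 9 against 62.5% and 40.9% of the tested members. The medians of the members were -0.66 and -0.53, so this short list gives no result apart from the members as a whole.

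In Th17 relative to Th1 cells, the largest changes among called members after Rpl39 were at Rpl17, Rps2, Rpl3 and Rpl12. Rpl3, which reaches the peptidyl transferase centre, was at 60.1, 63.1, 86.2, 116 and 112 CPM in Th17 libraries against 89.0, 155, 224, 231 and 132 CPM in Th1 libraries. The libraries overlapped, and the log2 fold change was -0.93 ± 0.25 (adjusted p = 0.00624, edgeR). Rpl17, found where the peptide leaves the ribosome, averaged 20.1 ± 4.24 CPM in Th17 and 39.1 ± 8.88 CPM in Th1 libraries, a log2 fold change of -0.96 ± 0.20 (adjusted p = 0.00107, edgeR). Rpl12, at the base of the stalk, averaged 12.1 ± 1.74 CPM in Th17 and 21.4 ± 4.11 CPM in Th1 libraries, a log2 fold change of -0.82 ± 0.25 (adjusted p = 0.0155, edgeR). Neither Rpl17 nor Rpl12 had a unique coding word.

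The genes that separated Tfh from Th17 cells were led by Rps27a, which encodes ubiquitin fused to a small subunit protein. It was at 12.6, 15.3, 28.7, 16.6 and 21.7 CPM in Tfh, 31.3, 34.5, 41.3, 30.2 and 32.9 CPM in Th17 and 40.2, 31.9, 33.7, 22.8 and 42.7 CPM in Th1 libraries. All Tfh libraries were below all Th17 libraries, and Th17 and Th1 libraries overlapped. On the log2 scale, the fold change was -0.83 ± 0.22 for Tfh over Th17 (adjusted p = 0.0118, edgeR), -0.84 ± 0.22 for Tfh over Th1 (adjusted p = 0.00342) and -0.01 ± 0.21 for Th17 over Th1 (adjusted p = 0.98).

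Rps12 was at 10.6, 15.7, 14.5, 13.6 and 14.0 CPM in Tfh, 22.01, 23.4, 16.3, 19.4 and 24.7 CPM in Th17 and 31.3, 36.0, 34.2, 32.2 and 30.3 CPM in Th1 libraries. It was called in all 3 comparisons and its groups did not overlap in any of them. The log2 fold changes were -0.62 ± 0.16 for Tfh over Th17 (adjusted p = 0.0112, edgeR), -1.26 ± 0.16 for Tfh over Th1 (adjusted p = 3.26e-06) and -0.63 ± 0.16 for Th17 over Th1 (adjusted p = 0.00386). Neither Rps27a nor Rps12 had a unique coding word. Rps19bp1, whose words were all its own, averaged 15.4 ± 3.69 CPM in Tfh, 23.2 ± 3.19 CPM in Th17 and 18.8 ± 2.95 CPM in Th1 libraries. Its log2 fold change was -0.59 ± 0.19 for Tfh over Th17 (adjusted p = 0.0418, edgeR), and the call was lost in 11 of the 15 fits without a library, at -0.62 to -0.46.

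**Figure D4:**
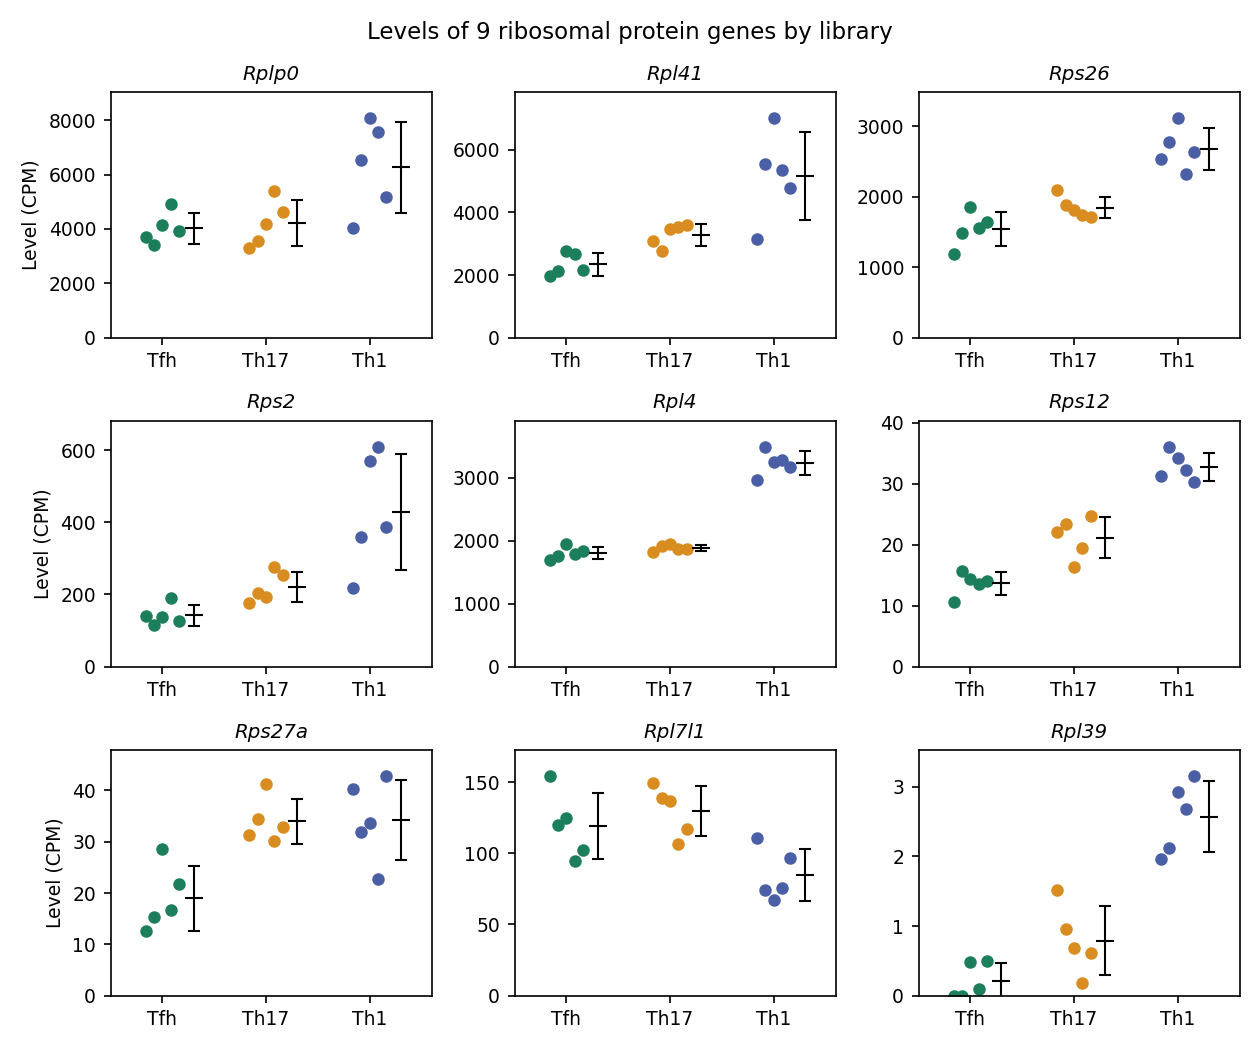
Levels (CPM) of 9 ribosomal protein genes by library. Points are libraries, bars the mean ± SD of 5 libraries, and each panel has its own axis from 0. Rpl4 shows Tfh and Th17 libraries together between 1693 and 1956 CPM below Th1 libraries between 2966 and 3485 CPM, Rps12 shows 3 separate groups, and Rpl7l1 is lowest in Th1.

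Rpl7l1 was the member called in the opposite direction. It is a paralog of Rpl7, related to a yeast factor of large subunit assembly rather than a standard part of the ribosome. It was at 154, 119.9, 124, 94.9 and 102 CPM in Tfh, 149.6, 139, 137, 107 and 117 CPM in Th17 and 111, 74.3, 67.0, 75.6 and 96.4 CPM in Th1 libraries. The groups overlapped. The log2 fold change was 0.49 ± 0.16 for Tfh over Th1 (adjusted p = 0.0189, edgeR) and 0.62 ± 0.16 for Th17 over Th1 (adjusted p = 0.00609). Against Th1, the call in Tfh was lost without Tfh library 1 or without Th1 library 2, 3 or 4, at 0.38 to 0.42. No gene of a standard subunit was called higher in Tfh or Th17 than in Th1 cells.

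The other paralogs were lower or not called. Rpl22l1, a paralog of Rpl22, was at 84.1, 164, 151, 74.1 and 140.2 CPM in Tfh, 301, 251, 241, 72.7 and 177 CPM in Th17 and 523, 368, 117, 119 and 356 CPM in Th1 libraries. All 3 groups overlapped widely. The log2 fold change was -1.27 ± 0.41 for Tfh over Th1 (adjusted p = 0.0144, edgeR), a call lost with limma-voom (adjusted p = 0.0538). Rpl22 itself, lower in Tfh by 0.69 ± 0.12 on the log2 scale (adjusted p = 0.00014, edgeR), did not overlap between Tfh and Th1 libraries. Rps27l fell by 1.03 ± 0.30 (adjusted p = 0.00813) and Rpl36al by 0.78 ± 0.26 (adjusted p = 0.0175) in Tfh relative to Th1 cells. Rpl32l, a named copy of Rpl32, fell by 0.60 ± 0.16 in Tfh (adjusted p = 0.00399) and by 0.41 ± 0.16 in Th17 (adjusted p = 0.0458), relative to Th1 cells in the edgeR fit. The second of these calls was lost in 7 of the 15 fits without a library. Rpl39l, a paralog known from male germ cells, stayed at or below 4.24 CPM, and Rps4l at or below 3.87 CPM, and neither was called.

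Libraries of the same condition differed in a way that followed base composition. Within conditions, each library's deviation from its group was correlated with the GC content of the transcripts, with Spearman's rho between -0.65 and 0.70 over all tested genes and between -0.68 and 0.71 over 67 members of at least 10 CPM. These are descriptions across genes of a library. Libraries at both ends occurred in every condition: rho over members ran from -0.64 to 0.65 in Tfh, -0.66 to 0.65 in Th17 and -0.68 to 0.71 in Th1. In each condition the fourth library had the highest rho over members. The lowest was that of the second library in Tfh and Th17 and of the first in Th1. The first Th1 library, with the lowest share of counts on members within Th1, had the lowest rho of all. Rpl22l1, with 39.1% GC, was at 523 CPM in that library and at 119 CPM in the fourth Th1 library, while Rplp0, with 53.0% GC, was at 4042 CPM in the first and 7564 CPM in the fourth. With a GC correction per library, chosen after the data were seen, 49 members were lower in Tfh than in Th1 and the median moved to -0.47. The median of all genes moved to 0.14, so that the members lay 0.61 below it, against 0.65 without the correction.

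Rack1 and Fau encode standard ribosomal proteins under symbols outside the rule. Rack1, a scaffold on the head of the small subunit, averaged 2949 ± 241 CPM in Tfh, 3264 ± 168 CPM in Th17 and 4296 ± 609 CPM in Th1 libraries. It fell by 0.54 ± 0.11 in Tfh (adjusted p = 0.00058, edgeR) and by 0.40 ± 0.11 in Th17 (adjusted p = 0.00945) relative to Th1. Fau, a fusion gene of the small subunit, averaged 8.66 ± 3.35 CPM in Tfh, 10.9 ± 1.31 CPM in Th17 and 10.3 ± 0.899 CPM in Th1 libraries and was not called. Fau had no unique coding word.

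A list of 18 other TOP mRNAs, mostly elongation and initiation factors, was set beside the members. In Tfh relative to Th1 cells 13 of the 18 were lower and none was higher, with a median log2 fold change of -0.64, where 25.2% of all genes were lower and 24.1% higher. In Th17 relative to Th1 cells 10 were lower and none was higher, with a median of -0.43, where 17.8% of all genes were lower and 19.0% higher. Between Tfh and Th17 cells none was called by edgeR. An unadjusted p under 0.05 was reached by 4 of the 18, and by 3677 of all 12591 genes in either direction. Eef1g, a subunit of the factor that loads transfer RNA, averaged 98.4 ± 14.7 CPM in Tfh, 121 ± 13.8 CPM in Th17 and 253 ± 44.8 CPM in Th1 libraries. Its log2 fold change was -1.36 ± 0.15 for Tfh over Th1 (adjusted p = 3.80e-07, edgeR) and -1.06 ± 0.15 for Th17 over Th1 (adjusted p = 1.17e-05). The poly(A)-binding protein Pabpc1 fell by 1.08 ± 0.13 in Tfh (adjusted p = 1.80e-06) and by 0.79 ± 0.13 in Th17 (adjusted p = 9.45e-05) relative to Th1 cells. Npm1, a nucleolar protein of ribosome assembly, fell by 1.40 ± 0.32 in Tfh (adjusted p = 0.00126, edgeR). The elongation factors Eef2 and Eef1b2 fell by 1.04 ± 0.19 (adjusted p = 0.000289) and 0.69 ± 0.10 (adjusted p = 2.84e-05) in Th17 relative to Th1. Hnrnpa1 fell by 0.92 ± 0.34 in Tfh relative to Th1 (adjusted p = 0.0334), a call lost in 5 of the 15 fits without a library.

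Of 13 genes that control growth and TOP mRNAs, 3 were lower in Tfh than in Th17, and 4 were lower and 1 was higher in Tfh than in Th1. In Th17 relative to Th1, 4 were lower and none was higher. The shares of all genes called lower were 9.98% for Tfh against Th17, 25.2% for Tfh against Th1 and 17.8% for Th17 against Th1, so that the counts for this short list give no result about it as a whole. Eif4ebp1, whose protein holds back the cap-binding factor Eif4e until mTOR releases it, was at 45.2, 42.5, 57.3, 57.3 and 33.5 CPM in Tfh, 82.3, 108, 104, 166 and 122.9 CPM in Th17 and 179, 293, 555, 443 and 217 CPM in Th1 libraries. No groups overlapped. The log2 fold changes were -1.30 ± 0.27 for Tfh over Th17 (adjusted p = 0.00253, edgeR), -2.84 ± 0.29 for Tfh over Th1 (adjusted p = 1.58e-07) and -1.53 ± 0.27 for Th17 over Th1 (adjusted p = 0.000188).

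Myc was at 139.8, 156, 194, 208 and 205 CPM in Tfh, 364, 346, 366, 424 and 387 CPM in Th17 and 575, 462, 733, 619 and 488 CPM in Th1 libraries, again without overlap. Its log2 fold changes were -1.06 ± 0.14 for Tfh over Th17 (adjusted p = 5.29e-05, edgeR), -1.67 ± 0.15 for Tfh over Th1 (adjusted p = 2.49e-08) and -0.61 ± 0.14 for Th17 over Th1 (adjusted p = 0.00239). Eif4e fell in all 3 comparisons, by 0.56 ± 0.12 in Tfh relative to Th17 (adjusted p = 0.00255, edgeR). Larp1 was called against Th1 in both comparisons, at -1.44 ± 0.21 for Tfh (adjusted p = 1.30e-05, edgeR) and -0.86 ± 0.20 for Th17 (adjusted p = 0.00257). Rheb, the activator of mTOR, was higher in Tfh than in Th1 by 0.55 ± 0.17 (adjusted p = 0.0115).

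Dedicated chaperones and assembly factors of ribosomal proteins were also examined. Of 9 such genes, 2 were lower and none higher in Tfh than in Th17, 2 were lower and 1 higher in Tfh than in Th1, and 1 was lower and 3 higher in Th17 than in Th1. Beside the shares of all genes given above, these counts are too small to say anything of the list, and the genes called are given singly. Znhit3, a factor of box C/D snoRNP assembly, was at 5.99, 8.90, 19.0, 17.3 and 19.5 CPM in Tfh and at 31.3, 29.95, 31.2, 28.7 and 26.9 CPM in Th17 libraries, a log2 fold change of -1.05 ± 0.25 (adjusted p = 0.00666, edgeR). Heatr3, whose yeast counterpart carries Rpl5 and Rpl11 to the nucleus, fell by 0.46 ± 0.13 in Tfh relative to Th17 (adjusted p = 0.0229), a call lost in 3 of the 15 fits without a library. Prmt3, which methylates Rps2, fell by 0.47 ± 0.15 in Tfh relative to Th1 (adjusted p = 0.0139). Grwd1, whose yeast counterpart escorts Rpl3, averaged 19.97 ± 2.65 CPM in Th17 and 9.41 ± 2.90 CPM in Th1 libraries and was higher by 1.08 ± 0.22 on the log2 scale (adjusted p = 0.00071, edgeR). Tsr2, the chaperone of Rps26, was higher in Th17 than in Th1 by 0.67 ± 0.24 (adjusted p = 0.0317), a call lost in 5 of the 15 fits without a library, and Bccip, a partner of Rpl23, by 0.57 ± 0.12 (adjusted p = 0.00119). Pdcd2, the chaperone of Rps2, was lower by 0.54 ± 0.14 (adjusted p = 0.00549).

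**Figure D5:**
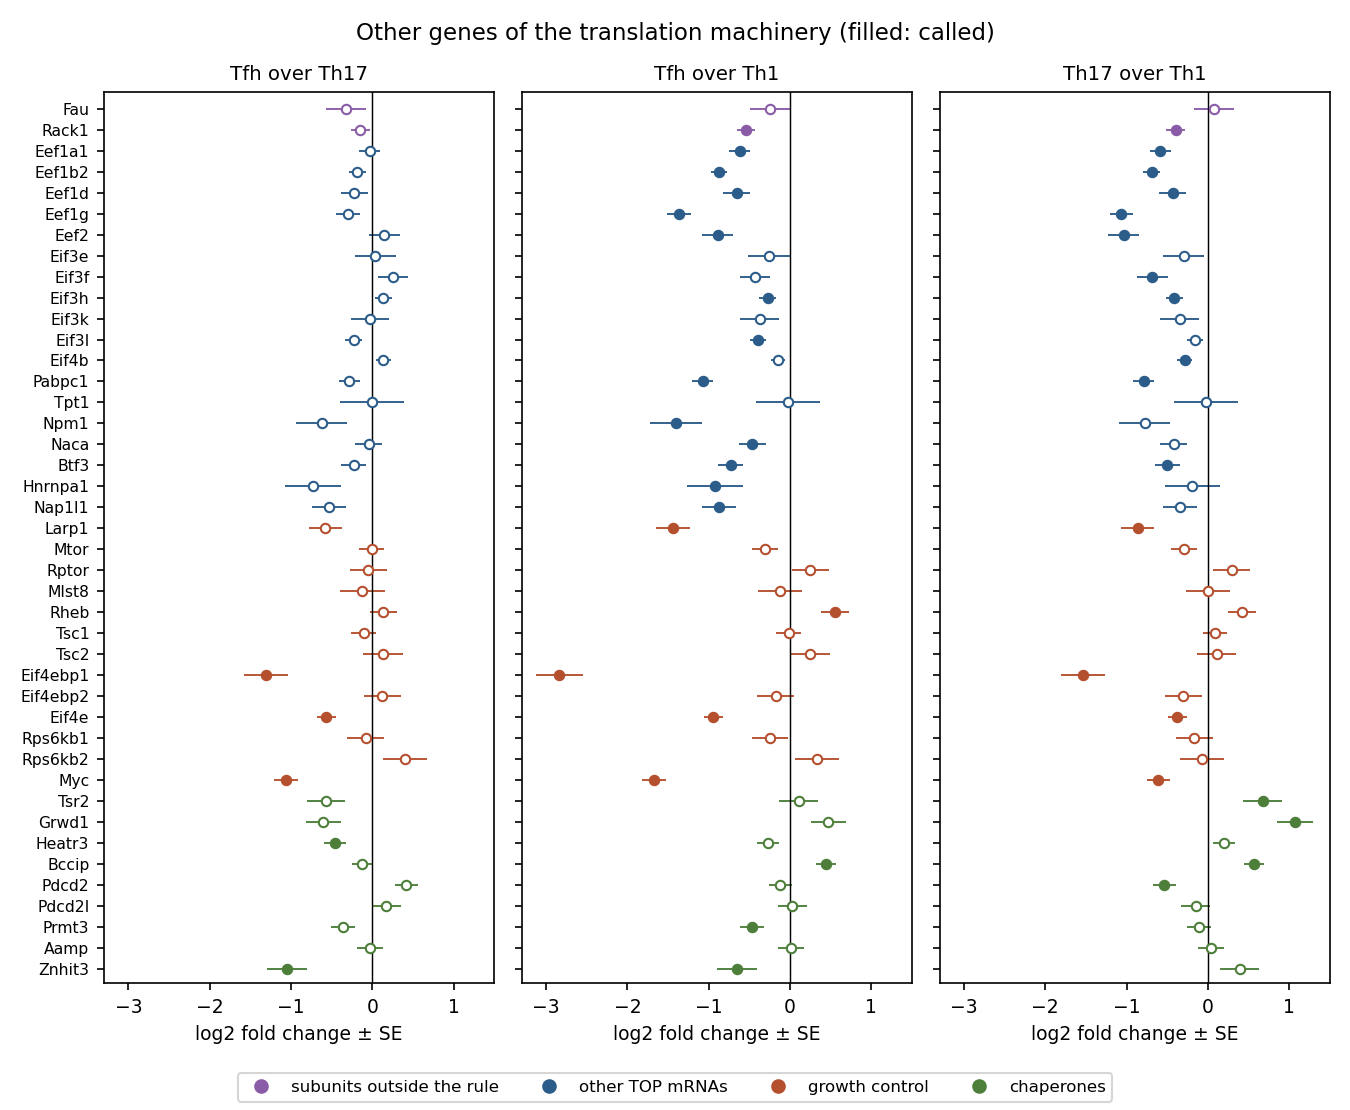
Fitted log2 fold changes ± SE of other genes of the translation machinery in the 3 comparisons. Filled points passed the test. In the comparison of Tfh with Th1, 13 of the 18 other TOP mRNAs lie below 0 and are filled, and Eif4ebp1 lies lowest at -2.84.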

How the data were processed

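The authors deposited a table of raw read counts per gene for 15 libraries. Per the labels' protocols, 100 ng of RNA per library was prepared with the Lexogen SENSE mRNA-Seq kit V2. STAR 2.7.2b, featureCounts 1.6.4 and the build mm10 are named in the submitters' processing notes. Which annotation was counted, whether strand was used and what became of reads matching several genes is not given in the sources used here. Gene names came from RefSeq for 25275 of the 27179 row identifiers and from GENCODE for 18.

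Low genes were removed with filterByExpr, TMM factors were computed, and all 3 conditions were fitted together with edgeR 4.0.16 (quasi-likelihood test) in R 4.3.3. P-values were adjusted by Benjamini-Hochberg over all 12591 genes tested, with a threshold of 0.05, and "called" means past it. DESeq2 1.42.0 and limma 3.58.1 (voom) were alternatives, beside other normalization factors, other filters, 2-condition fits, a replicate block and leaving out each library. CPM were computed on TMM-scaled library sizes; 3 counts equal 0.127 CPM in the deepest library and 0.579 CPM in the shallowest, limits that cover counting error only.

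The members and lists were chosen with earlier results of these data known. Genes named are the markers, the stalk and 5S RNA partners, the 5 called members with the highest and the 5 with the lowest fold change per comparison, tested paralogs, extremes of level per length, the 5 highest members under 10 CPM, and up to 4 called genes per outside list and comparison, with Rack1 and Fau; some genes within this rule are not reported here. Rpl4, Rpl22, Rpl30, Rpl35, Rpl36-ps12, Rheb and the genes set beside their paralogs were added after their values were seen. Coding words came from the shortest transcript with a consensus coding sequence in GENCODE vM21.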

Additional observations from a re-analysis of the deposited data

Results flagged for a closer look

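Each of 67 genes and the 3 shares of counts was examined in each condition for a library set apart from the other 4, by the gap to its nearest neighbour relative to the whole range. This gave 210 groups of 5 libraries, of which 9 had such a library, 4.29%. Chance flags about 1 in 20 groups, and no cause was tested.

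Among large subunit genes, Rpl10a was at 4.84 CPM in the fifth Tfh library, below the other 4. The first Tfh library was the highest of its group for Rpl18, at 131 CPM, and for Rpl36a, at 9.09 CPM, and the lowest for the small subunit gene Rps9, at 440.2 CPM. The first Th1 library was the highest of its group for Rpl17, at 54.7 CPM, and for Rpl9, at 11.9 CPM. Rpl37 reached 300.1 CPM in the third Th1 library. The copy Rpl32l was at 66.1 CPM in the fourth Th17 library, the lowest of that group. Outside the members, Znhit3 was at 27.5 CPM in the second Th1 library, above the other 4.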

How the results depend on the processing

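The count of members lower in Tfh than in Th1, 55, was 50 to 58 without a library and 37 (only the 52 tested members with a unique coding word, 71.2% of them against 62.5% of all 88) to 61 (replicate block) otherwise. The count lower in Th17 than in Th1, 36, was 28 to 45 without a library and 27 (of the same 52, 51.9% against 40.9%) to 45 (replicate block) otherwise. No direction of a called result was reversed among the genes named, the only genes whose direction was followed across these settings.

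The count lower in Tfh than in Th17, 3, was less stable: 10 with the replicate block, 5 with DESeq2, 6 with the GC correction, 1 among members with a unique coding word, and 2 to 5 without a library. With the GC correction the median was -0.074 for Tfh over Th17, and -0.47 for Tfh over Th1, but relative to all genes it was -0.17 and -0.61, against -0.16 and -0.65 without it. The count higher in Tfh than in Th1, 1, was 0 to 1 without a library and 0 among subunit genes. The count higher in Th17 than in Th1, 1, was 2 with the GC correction and 0 among subunit genes. These restrictions of the members, and the GC correction, were chosen after the data were seen. The cause was not tested.

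The replicate numbers share no stated origin. Deviations of same-numbered libraries correlated at -0.088 to 0.517, with 6 of 15 pairs above 0.1. The highest were those of the fourth libraries, at 0.411 for Tfh and Th17, 0.393 for Tfh and Th1 and 0.517 for Th17 and Th1. Of 15 libraries, 5 correlated best with their own number, so the numbers were not taken to pair the samples. Whether the fourth libraries share an origin or a step was not tested. With the block, Rpl41 was called lower in Tfh than in Th17 (adjusted p = 0.00528, edgeR). Mean shares of counts moved by less than 1 SD. Low counts limit Rpl39, Rpl13 and the other members under 10 CPM.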
